A study of Mus musculus with 6 samples.

Results

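Adipokines are the hormones and secreted proteins through which fat speaks to other organs, and 9 of their genes were followed here: Lep, Adipoq, Retn, Rbp4, Nampt, Apln, Agt, Rarres2 and Nrg4. They were listed by name as secreted products of adipocytes, and each was read from the probe set with the highest mean signal among those annotated with that gene alone. All 9 were measured, out of 19937 genes with such a probe set. The tissue was adipose tissue, of a depot that the labels do not name, from 3 cavin-3 KO mice and 3 WT littermates, all 10 weeks old, kept on standard chow and fasted for 6 hours. The KO mice carried 2 copies of an allele in which a lacZ/neo cassette stands in place of the cavin-3 gene. They descended from C57BL/6N ES cells of 1 targeted clone, so clone and genotype cannot be told apart. Each array held the RNA of 1 mouse, and the values are RMA intensities (a background-corrected, quantile-normalized summary of the probes of a gene) taken to log2. Such a signal depends on the probes, so levels are compared between arrays and not between genes.

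White adipocytes release leptin in proportion to the fat they store, and leptin reports this store to the hypothalamus. Adiponectin circulates as multimers and raises insulin sensitivity in liver and muscle, while resistin (made by adipocytes in mice) and retinol binding protein 4 are associated with insulin resistance. Apelin and angiotensinogen are precursors of peptides that act on blood vessels, chemerin (Rarres2) attracts immune cells, and neuregulin 4 is a ligand of ErbB receptors that is rich in brown fat. Caveolae are abundant in adipocytes, and the comparison asks whether loss of the caveolar protein cavin-3 is accompanied by a change in these transcripts. In whole tissue, fewer cells of a type and less RNA per cell cannot be told apart.

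Promoter sequences of 8 of the 9 genes were found in the RefSeq promoter table (GRCm38.p6). The stretches just before the starts of Lep and Agt are shown, because leptin is the defining hormone of the white adipocyte and Agt was the member that varied most between arrays. Both are written 5′ to 3′ along the strand of the gene and end at the base before the start. Lep lies on the plus strand and the stretch is chr6:29059971-29060220. Agt lies on the minus strand and the stretch is chr8:124569707-124569956. In Lep the capitals mark a palindrome to which C/EBP factors bind, and in Agt they mark a TATA box.
Lep: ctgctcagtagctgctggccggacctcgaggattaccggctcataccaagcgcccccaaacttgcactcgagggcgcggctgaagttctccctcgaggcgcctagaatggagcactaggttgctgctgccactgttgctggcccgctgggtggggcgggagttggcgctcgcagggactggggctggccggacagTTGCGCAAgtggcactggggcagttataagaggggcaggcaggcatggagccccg
Agt: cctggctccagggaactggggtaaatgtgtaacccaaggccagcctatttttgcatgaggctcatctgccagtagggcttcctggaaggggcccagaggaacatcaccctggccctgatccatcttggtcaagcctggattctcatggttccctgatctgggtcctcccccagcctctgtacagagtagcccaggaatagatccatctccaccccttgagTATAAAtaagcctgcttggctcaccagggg

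The C/EBP palindrome TTGCGCAA lay 48 to 55 bases before the start of Lep and in none of the other 7 matched members. Over all 32851 promoter entries, searched over the same 250 bases and on both strands, 0.164% held it. The TATA box TATAAA was found 25 to 30 bases before the start of Agt, and in 1 of the Rbp4 entries 23 to 28 bases before the start, against 12.4% of all entries. The GC box GGGCGG was present in 4 of the 8 matched members (Apln, Lep, Nampt and Rbp4) and in 32.7% of all entries. A member was counted when any of its entries held the motif, while the percentages are of single entries, so these are unlike measures. These motifs do not overlap each other in the stretches shown. A match describes the letters only.

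The targeted gene, Cavin3 (Prkcdbp), had log2 signals of 6.79, 6.78 and 7.12 in KO adipose tissue, against 10.05, 10.90 and 10.45 in WT, so all 3 KO values lay below all WT values. Defining adipocyte genes were high on every array: the mean log2 signal of 7 white adipocyte markers, such as the lipid droplet gene Plin1, was 11.88 to 11.97 in KO and 11.79 to 11.96 in WT. An array of each genotype stood apart. KO replicate 3 and WT replicate 2 had Xist signals of 11.34 and 11.14, against 3.70 to 6.30 on the other 4 arrays. The Y-linked gene Uty was at 3.21 and 3.36 on these 2 arrays, against 7.89 to 8.14 elsewhere. The methods state that males were used, so both arrays went against the stated sex, and whether these mice were female or samples were exchanged cannot be told from the values. The same arrays were high in skeletal muscle genes and in most listed brown adipocyte genes. Ucp1 was at 8.75 in KO replicate 3 and 8.56 in WT replicate 2, against 4.31 to 4.52 elsewhere. Ppargc1a, of the same list, went another way, at 7.23 and 7.19 there, against 7.60 in KO replicate 1 and 7.51 in WT replicate 3. Every other gene of the list was highest on the Xist-high arrays, though Dio2 and Elovl3 were dim, as was Ucp1 by its mean over the 6 arrays. KO replicate 2 and WT replicate 1 were high in Defb42 and Adam7, genes of the epididymis, at 9.65 and 9.19 in KO replicate 2 and 9.77 and 10.33 in WT replicate 1. On the other arrays both were at 3.67 to 4.53, and the other 3 measured genes of that list were dim on all 6. Smooth muscle genes were high on the same pair, with a mean over 6 genes of 10.41 in KO replicate 2 and 10.57 in WT replicate 1, against 7.75 to 9.30 elsewhere. Results are given with and without these pairs.

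None of the 9 adipokine genes passed the test of KO against WT by limma, whether at an adjusted or an unadjusted p of 0.05. Of all 34760 probe sets, 0.00575% passed at the adjusted and 1.95% at the unadjusted limit. Of the 19937 genes read from 1 probe set each, as the members were, 1 and 167 passed. KO levels were 0.966-fold to 1.13-fold of WT, 8 genes slightly above and Retn slightly below, with a median log2 difference of 0.052. The KO and WT values overlapped for all 9, where 4.61% of all genes had values that did not overlap. Every adjusted p was 0.99999 from limma, and for each gene the range within KO or within WT exceeded the difference between the means. The median size of the difference, in either direction, was 0.052 on the log2 scale for the adipokines and 0.064 for the 11411 genes with a mean signal above the median. Within genotypes the adipokines were not steadier, with a median pooled SD of 0.24 against 0.14 for those genes. The p-values set each difference against the spread within genotypes among these 6 mice, with the variance of a probe set drawn toward that of all probe sets.

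**Figure D1:**
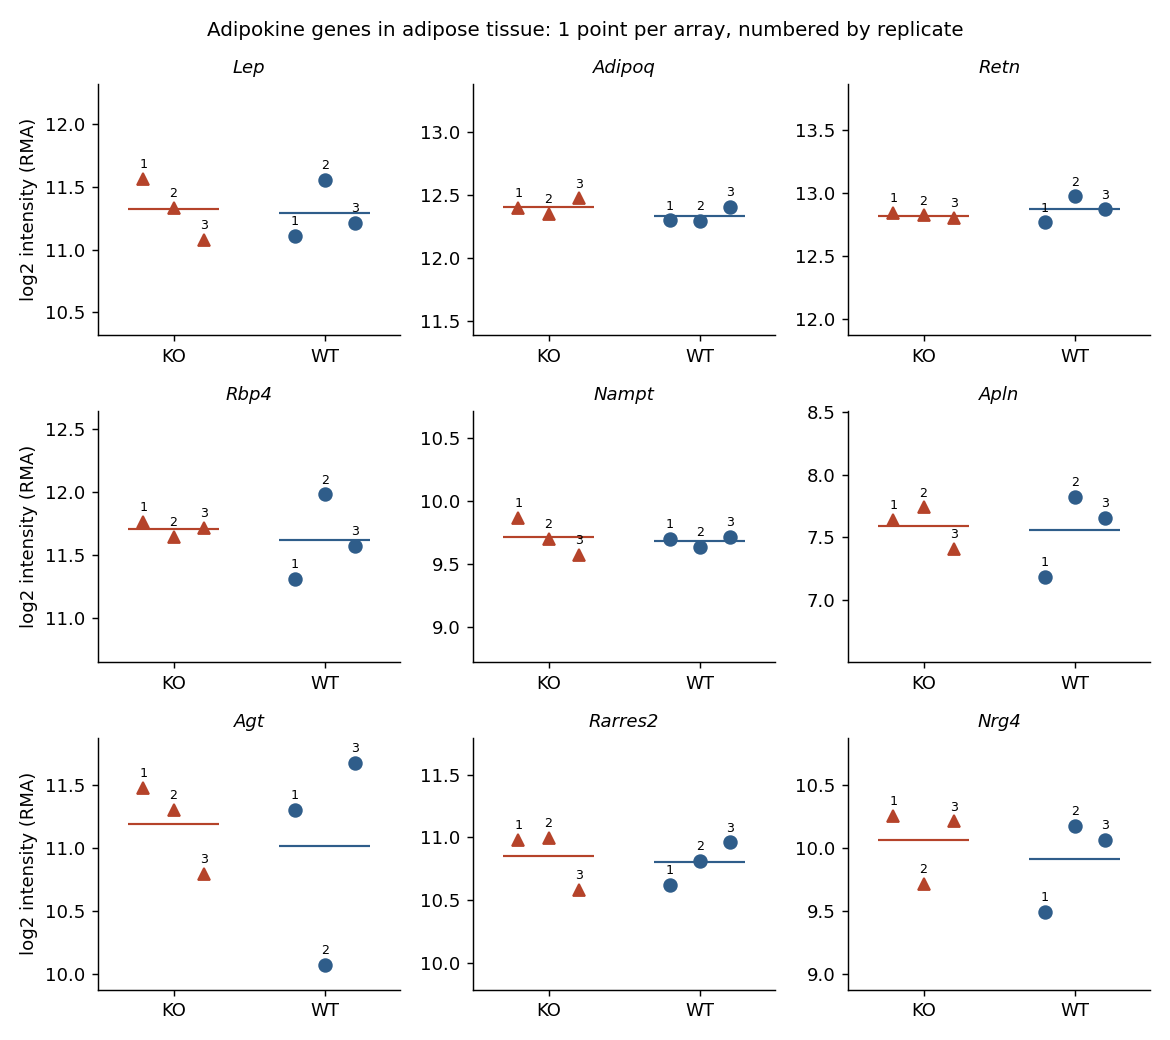
Log2 intensity of the 9 adipokine genes in adipose tissue of cavin-3 KO mice (triangles) and WT mice (circles), 1 point per array numbered by replicate, with a line at each group mean; every panel spans 2 log2 units. KO and WT points overlap for each gene, and Agt spreads most, with WT replicate 2 lowest at 10.07.

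Lep (probe set 10536789), the satiety hormone of white fat, had log2 signals of 11.56, 11.33 and 11.08 in KO and 11.11, 11.55 and 11.21 in WT. The 3 WT values lay inside the range of the KO values. The KO mean stood at 1.02-fold of the WT mean, with 0.769 to 1.36 as its 95% interval.

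Adipoq (probe set 10434747), which encodes adiponectin, had 12.40, 12.35 and 12.47 in KO and 12.30, 12.30 and 12.40 in WT. KO replicate 3 was the highest array and WT replicate 2 the lowest, and WT replicate 3 reached the KO values. At 1.05-fold (0.914 to 1.21), Adipoq had the narrowest interval of the 9 and the smallest spread within genotypes. Its pooled SD of 0.062 on the log2 scale exceeded that of 8.10% of the 11411 brighter genes. Of the 9 genes, it alone kept its direction under all 19 alternatives. Several of these, such as the replicate block and the Xist term, could not change the log2 difference of 0.074.

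Retn (probe set 10569870), the resistin gene, had 12.84, 12.82 and 12.80 in KO and 12.77, 12.97 and 12.87 in WT. The KO values were nearly equal and lay between the WT extremes, and the level was 0.966-fold of WT (0.833 to 1.12). Rbp4 (probe set 10467319), which carries retinol in blood, had 11.76, 11.64 and 11.71 in KO and 11.31, 11.98 and 11.57 in WT. Here too the KO values lay between those of WT replicates 1 and 2, with an SD of 0.059 in KO and 0.34 in WT (n = 3 each). The fold was 1.06 (0.794 to 1.42).

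Nampt (probe set 10395259) encodes the rate-limiting enzyme of NAD salvage, which is also released from cells and was once named visfatin. It had 9.86, 9.70 and 9.57 in KO and 9.70, 9.63 and 9.72 in WT, and the WT values lay inside the KO range. The fold was 1.02 (0.860 to 1.21).

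Apln (probe set 10604375), the apelin precursor gene, had 7.64, 7.74 and 7.41 in KO and 7.19, 7.82 and 7.65 in WT. The KO values lay between the WT extremes and the fold was 1.03 (0.754 to 1.40). Retn, Rbp4 and Apln shared their extremes: WT replicate 2 was the highest of the 6 arrays and WT replicate 1 the lowest for all 3.

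Rarres2 (probe set 10544573), the chemerin gene, had 10.979, 10.998 and 10.583 in KO and 10.63, 10.82 and 10.96 in WT. KO replicate 3 was the lowest array and the other KO arrays the highest, with WT in between. The fold was 1.04 (0.805 to 1.34).

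Nrg4 (probe set 10593776), the neuregulin 4 gene, had 10.25, 9.71 and 10.21 in KO and 9.49, 10.17 and 10.06 in WT. An array of each genotype was low, KO replicate 2 and WT replicate 1, which are the arrays with high Defb42 and Adam7 and high smooth muscle genes. The other 4 lay within 10.06 to 10.25. Nrg4 was at 1.11-fold (0.756 to 1.63) with all arrays, a log2 difference of 0.15 (SE 0.23), and at 0.12 (SE 0.12) on the log2 scale without that pair. Of the arrays with high Ucp1, KO replicate 3 was between the other KO arrays for Nrg4 and WT replicate 2 was the highest WT array. The part of the epididymis, smooth muscle and brown adipocyte genes in these values was not tested.

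Agt (probe set 10582658), whose product angiotensinogen is cleaved to the angiotensins, varied most. It had 11.48, 11.30 and 10.79 in KO and 11.30, 10.07 and 11.68 in WT. The lowest array of each genotype was the one with high Xist, Ucp1 and skeletal muscle genes. The pooled SD within genotypes was 0.65, larger than that of 97.0% of the brighter genes, and the fold of 1.13 had the widest interval (0.556 to 2.29). The log2 difference of 0.18 (SE 0.42) was -0.10 (SE 0.17) without KO replicate 3 and WT replicate 2. On the mean of linear intensities it was 0.057. With Xist-high or Xist-low as a term in the fit it was again 0.18 (SE 0.21). Both genotypes had the same share of Xist-high arrays, so that term could change only the SE and does not check the difference.

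Agt was the single member whose range over the 6 arrays exceeded 1 on the log2 scale (1.61). The 3 genes nearest to it in pattern, of 11410 compared by the root mean square distance of their deviations from their own means, were Avpr1a, Ace and St6galnac5, at distances of 0.13, 0.14 and 0.15. Ace, which converts angiotensin I to angiotensin II, had log2 signals of 9.46, 9.27 and 8.51 in KO and 9.38, 8.21 and 9.56 in WT. Avpr1a, a vasopressin receptor, had 7.362, 7.002 and 6.602 in KO and 7.26, 6.14 and 7.39 in WT. St6galnac5, a sialyltransferase gene, had 7.96, 7.37 and 7.16 in KO and 7.43, 6.31 and 7.81 in WT. All 3 were lowest in WT replicate 2 and next lowest in KO replicate 3, as was Agt. None of the 3 passed the test of KO against WT (adjusted p = 0.99999 from limma). Since the 3 were picked for their nearness to Agt, both likenesses follow from the choice and are no further evidence. The brown adipocyte list (7 genes, 4 of them above the median signal) had means of 6.04, 5.99 and 7.57 in KO and 5.79, 7.61 and 5.75 in WT, and the skeletal muscle list (7 genes, 6 above the median) had 6.164, 6.618 and 8.997 in KO and 6.97, 8.90 and 5.98 in WT. Ppargc1a, of the brown adipocyte list, was not high in KO replicate 3 or WT replicate 2. The part of both lists in the Agt values was not tested.

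**Figure D2:**
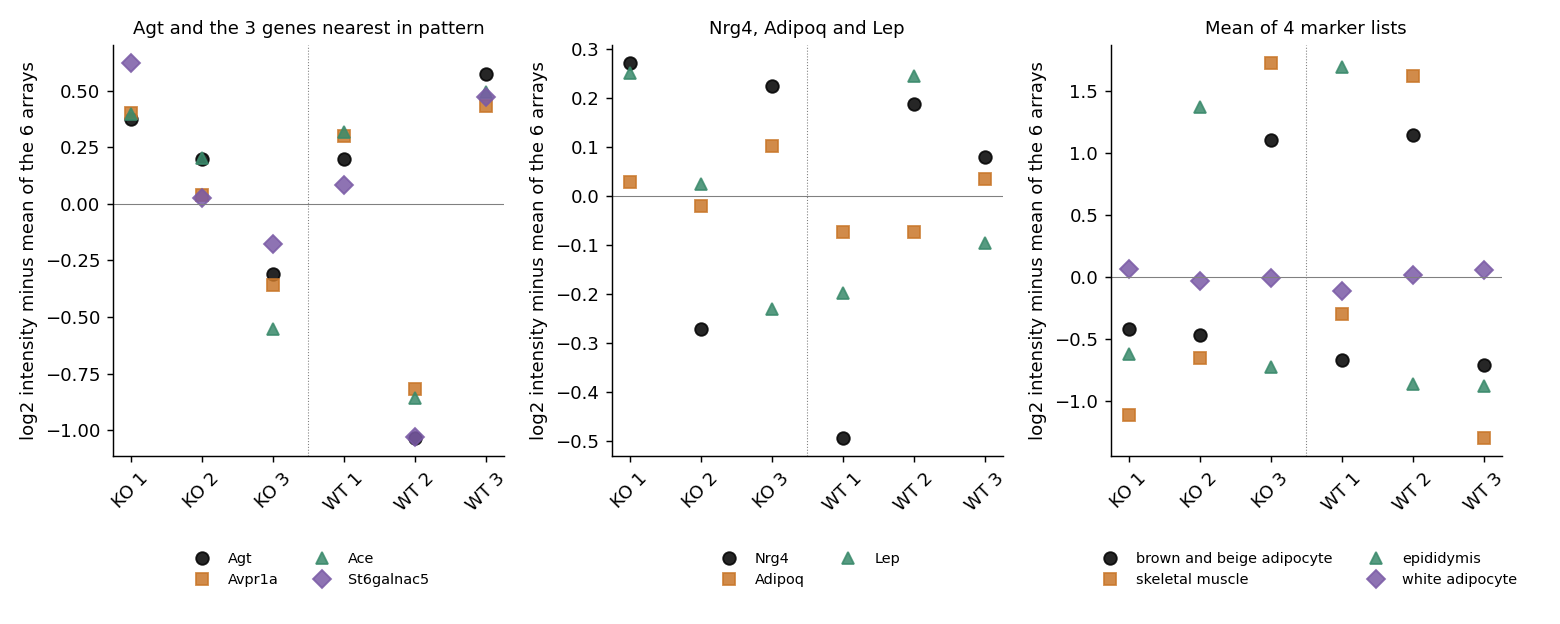
Log2 intensity on each array minus the mean of the 6 arrays, for Agt with Avpr1a, Ace and St6galnac5 (left), for Nrg4, Adipoq and Lep (middle) and for the means of 4 marker lists (right), with KO arrays left of the dotted line and WT arrays right of it; each panel has its own vertical scale. Agt was low in KO 3 and WT 2, where the means of the brown adipocyte and skeletal muscle lists were high. Nrg4 was low in KO 2 and WT 1, where the mean of the epididymis list was high, mainly through Defb42 and Adam7.

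The precision of each gene set what could be seen. The 95% interval of the fold lay inside 2-fold in either direction for 8 of the 9 genes, Agt being the exception, and inside 1.5-fold for 7 of the 9, with Nrg4 and Agt outside. These intervals are for single genes and are not adjusted for their number.

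Single arrays set the direction of most of these small differences. Lep was at -0.087 on the log2 scale without KO replicate 1 and 0.16 without WT replicate 2. Agt was at -0.30 without WT replicate 2 and 0.51 without WT replicate 3. Rbp4, Apln and Nrg4 were at -0.069, -0.15 and -0.059 without WT replicate 1, and Nampt at -0.047 without KO replicate 1. Rarres2 was at -0.035 without WT replicate 1, and Retn at 0.0019 without WT replicate 2. Adipoq stayed between 0.041 and 0.11 without any 1 array. No adipokine gene was called in any of these fits.

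**Figure D3:**
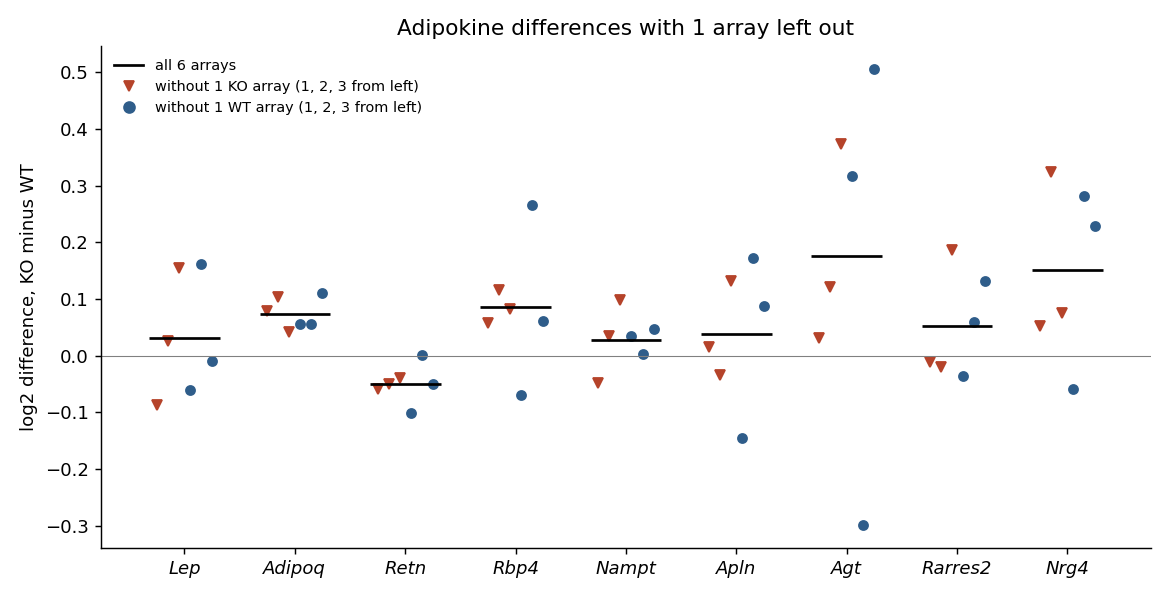
KO minus WT log2 difference of the 9 adipokine genes with all 6 arrays (black line) and with 1 KO array (triangles) or 1 WT array (circles) left out. Adipoq kept its sign, between 0.041 and 0.11, and the points of each other gene lie on both sides of 0.

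Without the Xist-high arrays, 2 KO and 2 WT arrays were left, and the values of Lep, Rbp4 and Rarres2 no longer overlapped. All 3 were higher in KO, with log2 differences of 0.28 (SE 0.13), 0.26 (SE 0.14) and 0.19 (SE 0.15) and an adjusted p of 0.9996 each from limma, and 28.2% of all genes did not overlap in that comparison. Without the arrays high in Defb42 and Adam7, Nrg4 was higher in KO without overlap, while Retn (-0.10, SE 0.12) and Apln (-0.22, SE 0.15) were lower. There, 25.6% of all genes did not overlap. A share of 3 in 9 stands near these backgrounds, and the directions differ between the comparisons.

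Among the receptors of these hormones, again none was called. Of 16 listed, 15 were measured and 10 lay above the median signal. None passed at an adjusted or an unadjusted p of 0.05 from limma, none had values free of overlap, 11 were above and 4 below WT, and the median log2 difference was 0.055. Of all 19937 genes, 1 passed at the adjusted and 167 at the unadjusted limit, and 4.61% had values free of overlap. By direction, 10036 of them were above and 9901 below WT, with a median of 0.00085.

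For the adiponectin system the levels were close to those of WT. Adipor1 and Adipor2, the adiponectin receptors, were at 1.002-fold (95% interval 0.864 to 1.16) and 1.04-fold (0.806 to 1.34) of WT. Cdh13, T-cadherin, which binds adiponectin multimers, was at 1.03-fold (0.764 to 1.39), and Cap1, described as a receptor of human resistin, at 0.997-fold (0.872 to 1.14). Cmklr1, the signalling receptor of chemerin, had 10.48, 10.37 and 10.30 in KO and 10.07, 10.33 and 10.20 in WT. It was at 1.14-fold (0.954 to 1.35), with 1 WT value inside the KO range. The other chemerin receptors, Ccrl2 and Gpr1, were at 1.06-fold each, and Gpr1 was dim. Aplnr, the apelin receptor, had 8.71, 8.50 and 8.84 in KO and 9.09, 8.61 and 8.88 in WT, a fold of 0.885 (0.684 to 1.14). Agtr1a, the main angiotensin II receptor of vessels, was at 1.13-fold (0.820 to 1.55).

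Lepr, the leptin receptor, was dim, with 4.99, 5.41 and 6.27 in KO and 5.33, 5.30 and 5.28 in WT. KO replicate 3 alone was high, and the log2 difference of 0.26 was -0.099 without it. Stra6, which takes up retinol from Rbp4, was highest in KO replicate 2 (6.86) and WT replicate 1 (6.84), against 6.07 to 6.24 on the other 4 arrays, and was at 0.969-fold (0.606 to 1.55). Erbb3 showed the same pair of arrays high, at 7.63 in KO replicate 2 and 8.42 in WT replicate 1, against 5.80 to 7.02 elsewhere. The part of the epididymis and smooth muscle genes, high on the same arrays, in the Stra6 and Erbb3 values was not tested. The Erbb3 fold of 1.04 had an interval of 0.284 to 3.80. Erbb4, the receptor to which Nrg4 binds, was dim, at 1.04-fold (0.661 to 1.64). Agtr2 and Mas1, further angiotensin receptors, were dim too, at 0.962-fold and 1.03-fold.

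**Figure D4:**
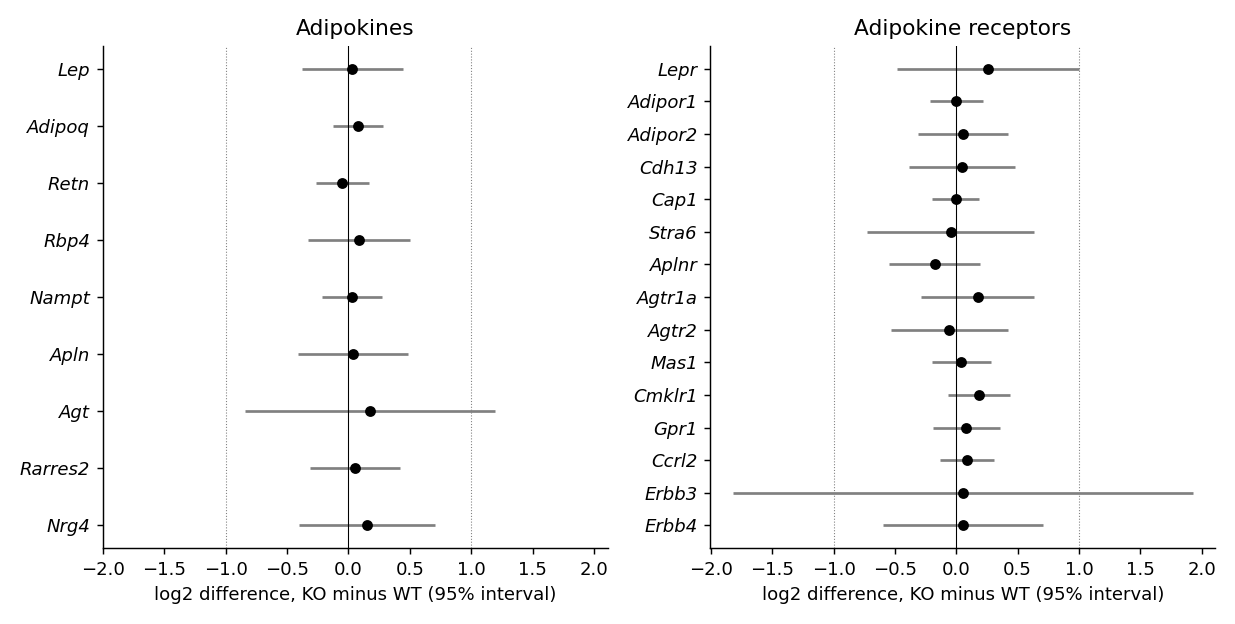
KO minus WT log2 difference (points) with its 95% interval from limma (lines) for the 9 adipokine genes (left) and 15 of their receptors (right), with dotted lines at 2-fold in either direction. Every interval spans 0, and those of Agt, Lepr and Erbb3 reach past a dotted line.

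Genes that process the hormones, or act with them, were 15 measured of 18 listed. None passed at an adjusted or an unadjusted p of 0.05, 11 were above and 4 below WT, and the median log2 difference was 0.081. Over all 19937 genes, 1 and 167 passed, 10036 were above and 9901 below WT, and the median was 0.00085. Ttr, transthyretin, which holds Rbp4 in plasma, was dim. It had 6.57, 5.46 and 6.15 in KO and 5.67, 5.34 and 4.84 in WT, a log2 difference of 0.78 (SE 0.33). Its unadjusted p was 0.054 from limma, and was not under 0.05 in 12 of the 18 alternatives that gave it a value. Without KO replicate 2 and WT replicate 1 the log2 difference was 1.27 (SE 0.24), with its smallest unadjusted p, 0.0046 from limma. Without the Xist-high arrays it was 0.76 (SE 0.49), and leaving out each array in turn it ranged from 0.52 to 1.07. Ttr did not pass at an adjusted p of 0.05 in any of these fits. A list of 8 liver genes (3 of them above the median signal) was above WT for 8 of 8, with means of 7.22, 5.72 and 6.65 in KO and 6.20, 5.85 and 5.25 in WT, and its part in the Ttr value was not tested. Nmnat1 and Nnmt, enzymes of NAD synthesis and of nicotinamide methylation, were at 1.21-fold (0.825 to 1.77) and 1.09-fold (0.931 to 1.28). A single array set much of both values: without WT replicate 1 the log2 difference of Nmnat1 was 0.026 instead of 0.27, and that of Nnmt 0.067 instead of 0.13.

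All 9 listed genes of leptin and adiponectin signalling were measured, with none called, 3 above and 6 below WT, and a median of -0.022. Among all genes 1 was called, with 10036 above and 9901 below WT and a median of 0.00085. Ppara, a nuclear receptor of fatty acid oxidation, had 7.57, 7.67 and 7.70 in KO and 7.48, 7.48 and 7.38 in WT. Its values did not overlap, as for 4.61% of all genes, and its 1.15-fold level (0.995 to 1.32) did not pass (adjusted p = 0.99999 from limma). Its unadjusted p was 0.057 from limma and 0.019 from the methods' t-test on log2 values. It was not under 0.05 in 15 of the 19 alternatives. Ptpn1, a phosphatase that restrains leptin signalling, was at 1.11-fold (0.913 to 1.36), and Stat3, a transducer of the leptin receptor, at 0.931-fold (0.812 to 1.07).

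Of 33 other secreted factors of adipose tissue, 29 were measured, 18 above and 11 below WT, with a median of 0.036. None passed at an adjusted p of 0.05, and 1 had an unadjusted p under 0.05, where 167 of all 19937 genes did. This was Ccl2, a chemokine that draws monocytes, with 6.79, 6.82 and 6.39 in KO and 6.93, 6.96 and 7.23 in WT, without overlap, a fold of 0.771 (0.597 to 0.994, unadjusted p = 0.046 and adjusted p = 0.99999 from limma). Its unadjusted p was not under 0.05 in 12 of the 19 alternatives, among them the methods' t-test and the fit without KO replicate 3 (log2 difference -0.24, against -0.38 with all arrays). C1qtnf9, a paralog of adiponectin, had 8.52, 8.48 and 8.37 in KO and 7.92, 8.31 and 8.28 in WT, without overlap, and was at 1.22-fold (0.980 to 1.51). Its log2 difference of 0.28 was 0.16 without WT replicate 1. Tnf, an inflammatory cytokine, was dim and at 1.16-fold (0.951 to 1.41). Values without overlap in 2 of 29 genes stand beside 4.61% of all genes.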

How the data were processed

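Adipose tissue RNA of 3 cavin-3 KO and 3 WT mice was amplified, labelled with biotin and hybridised by the authors to Affymetrix Mouse Gene 1.0 ST arrays, and the scans were processed with GenePattern modules. The deposited table holds linear intensity values per probe set (2.69 to 10396), for which the submitters' notes name RMA and no version. For the probe set annotation the sources used here name no genome build (the promoter table has its own). Scanner files were not used here, so background could not be judged.

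After log2 transformation, limma 3.58.1 in R 4.3.3 (lmFit, eBayes, no covariate) compared KO with WT, with Benjamini-Hochberg adjustment over all 34760 probe sets. The median standard error was 0.13, and the number of arrays limits the precision. Gene names came from the annotation of the platform, in which 21640 probe sets have 1 symbol, 1321 several and 11799 are not listed, and 1 probe set was used per gene (19937 genes). List names were matched through RefSeq synonyms.

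The members and the gene lists were chosen with earlier results of these data known. Beside the 9 members, every measured receptor was named, and of each other list the 3 genes with the smallest unadjusted p. Markers named in the check of the arrays were chosen after their values were seen. The 19 alternatives left out each array or either pair of arrays that stood apart, replaced limma by the methods' t-test (on log2 or on linear values), repeated quantile normalization, centred arrays on their medians, dropped dim or multi-symbol probe sets, averaged the probe sets of each gene, used a trended robust variance, array weights or a replicate block, and added a term for Xist-high arrays (log2 above 9). The fit was tested on simulated data.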

Additional observations from a re-analysis of the deposited data

How the results depend on the processing

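None of the 9 adipokine genes was called under any of the 19 alternatives (lowest adjusted p 0.9996 from limma or the methods' t-test), nor was any of the 24 other named genes under those that gave it a value (18 for 7 dim genes, which the loss of dim probe sets removed, and 19 for the others). Directions were less stable: 8 of the 9 members and 13 of the 24 others turned under at least 1 alternative. For the members this came only from leaving out arrays. Some alternatives, such as the trended robust variance, the replicate block and the Xist term, could not turn a direction, since they leave the difference itself unchanged. Over all probe sets 0 to 2 were called, with 0 under the methods' t-test on log2 or linear values, the replicate block and the loss of either pair of arrays.

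Leaving out each array in turn, the log2 difference ranged from -0.087 to 0.16 for Lep, -0.10 to 0.0019 for Retn, -0.069 to 0.27 for Rbp4, -0.047 to 0.098 for Nampt, -0.15 to 0.17 for Apln, -0.30 to 0.51 for Agt, -0.035 to 0.19 for Rarres2 and -0.059 to 0.32 for Nrg4. Among the receptors it ranged from -0.099 to 0.54 for Lepr, -0.031 to 0.061 for Adipor1, -0.065 to 0.16 for Adipor2, -0.13 to 0.22 for Cdh13, -0.027 to 0.022 for Cap1, -0.30 to 0.18 for Stra6, -0.018 to 0.32 for Agtr1a, -0.21 to 0.12 for Agtr2, -0.010 to 0.12 for Mas1, -0.0059 to 0.16 for Gpr1, -0.44 to 0.87 for Erbb3, -0.15 to 0.30 for Erbb4, 0.12 to 0.25 for Cmklr1, -0.30 to -0.062 for Aplnr and 0.037 to 0.13 for Ccrl2. Of the other genes it moved by over 1.5 times for Nmnat1 (0.026 to 0.45), Nnmt (0.067 to 0.17), Ptpn1 (0.083 to 0.24), C1qtnf9 (0.16 to 0.35), Ccl2 (-0.45 to -0.24) and Tnf (0.14 to 0.29). The number of adipokine genes without overlap, 0 with all arrays, was 0 to 1, where 9.93% to 15.1% of all genes did not overlap. The unadjusted p of Ccl2 was 0.024 to 0.14 over the 19 alternatives. That of Ttr was 0.0046 to 0.19 over its 18, from limma or the methods' t-test.

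Without the Xist-high arrays that number was 3, and the difference turned to 0.012 for Retn, -0.10 for Agt, -0.10 for Lepr, -0.12 for Cdh13, 0.047 for Cap1 and -0.073 for Agtr1a. Without KO replicate 2 and WT replicate 1 it was also 3, and the difference turned to -0.064 for Lep, -0.038 for Rbp4, -0.22 for Apln, -0.11 for Rarres2, 0.029 for Aplnr, -0.025 for Adipor1, -0.016 for Mas1 and -0.0034 for Gpr1. Array weights gave -0.045 for Adipor2, -0.090 for Cdh13, 0.018 for Cap1 and 0.067 for Stra6, and linear means gave -0.28 for Erbb3. The cause was not tested.

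The replicate numbers in the titles gave no pairing: across 19937 genes, which are not independent replicates, deviations of same-numbered arrays correlated at -0.24, -0.50 and -0.042, and no array correlated best with its own number. Across numbers, the highest correlations were 0.71 for KO replicate 2 with WT replicate 1, 0.61 for KO replicate 3 with WT replicate 2 and 0.51 for KO replicate 1 with WT replicate 3. With the replicate block the number of adipokine genes called was 0, as without it. The depth of signal over background could not be judged from these values.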
